A study of Homo sapiens with 8 samples.

Results

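The comparison set transcript levels in cells with a guide RNA against SETD1A beside those in cells with an empty guide vector, across all genes with a name and a mean of at least 1 TPM (transcript abundance after scaling each library to the same total) over the 6 libraries. This left 11885 of 19035 gene symbols, and the members were chosen by level alone, without regard to group. The cells were of the human breast cancer line KPL-1 and carried an inducible Cas9 (iCas9), and each library came from day 7 of doxycycline, the drug that turns Cas9 on. The sgEmpty group had 3 libraries whose genotype is labelled WT, and the sgSETD1A group had 3 libraries labelled SETD1A knockout. Both groups therefore carry iCas9, a guide vector and doxycycline, and they differ in the guide. The comparison held no group with a guide against another site, so cutting by Cas9 as such was not controlled for. The same series holds 2 libraries of a guide pool (sgKMT2pool), not used here. Whether the cells were a single clone and how many guides sgSETD1A stands for are not given in the sources used here.

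SETD1A is the catalytic subunit of a COMPASS complex, which places methyl groups on lysine 4 of histone H3, a mark found at the start sites of active genes. Many human genes share a start region with a neighbour: their start sites lie back to back on opposite strands, a layout called head-to-head or a bidirectional promoter. Housekeeping genes, and in particular genes of mitochondria, DNA repair and RNA processing, are often arranged in this way. Both genes of such a pair lie in the same stretch of chromatin, so their changes can be set side by side.

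TPM holds no sequencing depth, so the depth of these libraries is unknown here. The number of genes at or above 1 TPM ran from 11769 to 11961 per library. Correlations between libraries of a group, across genes, were lowest for sgSETD1A replicate 1 (0.9956 and 0.9954 with its group, against 0.9977 between the others). No label says that replicates are independent cultures, and p-values here rest on the spread between libraries, which may be technical. Of 9 luminal epithelial markers, 8 reached a mean of 1 TPM, and their sum was 14370 to 15441 TPM in sgEmpty and 16353 to 16870 TPM in sgSETD1A, groups that did not overlap. The exception was PGR, the progesterone receptor, at 0.116 TPM or less in each library. Summed markers stayed at 2.21 TPM or less for immune cells, 5.00 TPM or less for fibroblasts and 0.336 TPM or less for endothelial cells, and the defining genes CD3D, MS4A1, DCN and TEK were listed at 0 in each library. KPL-1 is listed in cell line registers as a derivative of MCF-7, a line known to lack CDKN2A. CDKN2A stood between 0.535 and 0.917 TPM in these libraries. The other of 2 genes listed as deleted in MCF-7 reached a mean of at least 1 TPM and was not called (0.12 log2).

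The targeted transcript measured 17.5, 17.5 and 18.1 TPM in the sgEmpty libraries and 9.36, 11.3 and 10.7 TPM in the sgSETD1A libraries. All 3 sgSETD1A libraries lay below all 3 sgEmpty libraries (-0.71 log2, SE 0.0706, limma adjusted p = 9.13e-05). Editing by Cas9 can disrupt a protein without removing its transcript, and this transcript level therefore checks the labels without measuring the loss of protein.

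In sgSETD1A, 3327 genes were called higher (28% of the genes tested) and 1605 lower (13.5%) by limma at an adjusted p under 0.05. Most changes were small. A change of at least 0.5 log2 was reached by 381 rises (3.21%) and 341 falls (2.87%), and one of at least 1 log2 by 15 rises and 25 falls. All changes are differences of log2(TPM + 1), and the added 1 makes those of low transcripts look smaller. The count of 15 was 25 without sgSETD1A replicate 1. The pseudocount set both of the last counts, which were 82 and 50 at a pseudocount of 0.1 and 6 and 6 at a pseudocount of 5. The median change of all genes tested was 0.07 log2. Median-ratio rescaling, which moves each gene by about -0.07 log2, gave 1835 rises (15.4%) and 2284 falls (19.2%), and none of the 3440 genes called under both scalings changed direction. The 30 largest rises and 30 largest falls kept their calls under both rescalings, while many small rises did not. A mean under 1 TPM in sgEmpty was found for 81 of the 3327 rises, 2 of them among the 30 largest (KLHL23 and HIST1H1B), and in sgSETD1A for 26 of the 1605 falls. These genes passed the filter only through the group where they were higher, so their direction was set by the filter.

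**Figure D1:**
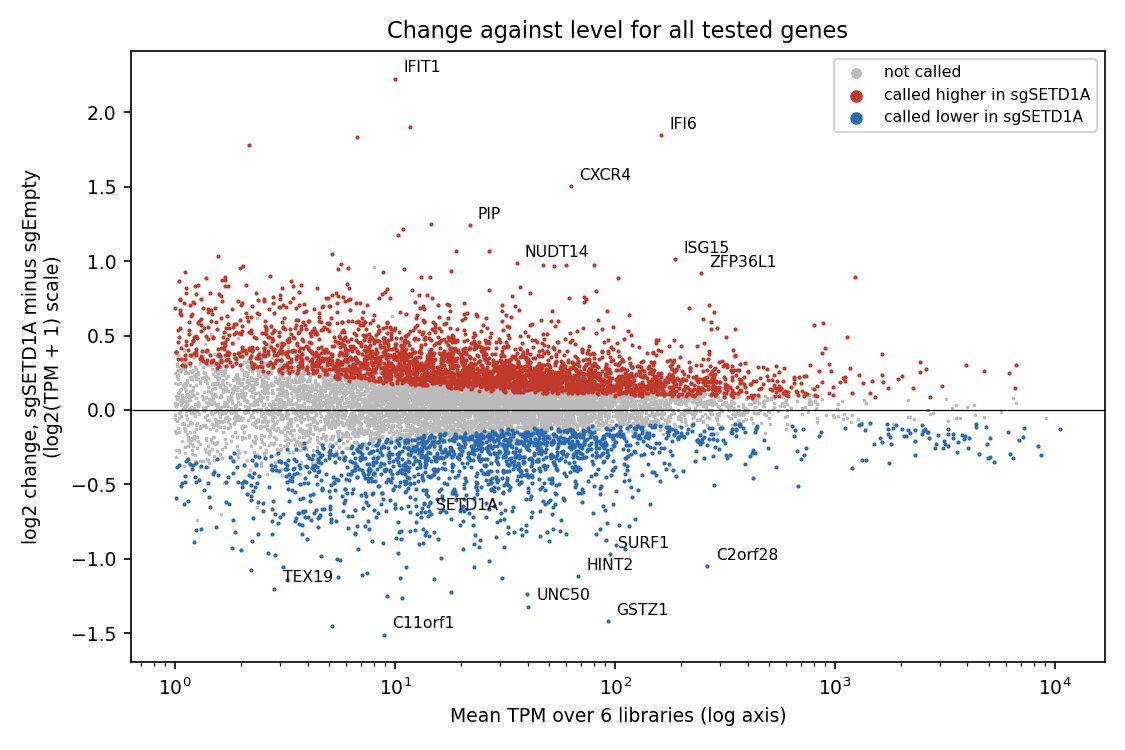
Each point is 1 of the 11885 tested genes, with its mean TPM over the 6 libraries on a log axis and its log2 change (sgSETD1A minus sgEmpty) on the vertical axis. Red points were called higher and blue points lower. The largest rises include the interferon-induced genes IFIT1 (2.23 log2) and IFI6 (1.85), and the largest falls C11orf1 (-1.51) and GSTZ1 (-1.42).

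Enzymes and assembly factors of mitochondria stood among the largest falls. GSTZ1, which encodes an enzyme of tyrosine breakdown, measured 133, 138 and 136 TPM in the sgEmpty libraries and 50.5, 49.1 and 50.7 TPM in the sgSETD1A libraries. The 2 groups were far apart and the libraries within each nearly equal, a fall by 1.42 log2 (SE 0.0365, limma adjusted p = 1.00e-07). PRODH, proline dehydrogenase, the first enzyme of proline breakdown, stood at 9.97, 9.91 and 11.5 TPM in the sgEmpty libraries and 3.76, 5.22 and 4.16 TPM in the sgSETD1A libraries, a fall by 1.10 log2 (limma adjusted p = 8.43e-05). SURF1, an assembly factor of cytochrome c oxidase, went from 127, 127 and 122 TPM to 64.8, 60.98 and 64.7 TPM. Its groups did not overlap, and the change was -0.97 log2 (limma adjusted p = 1.49e-06). HINT2, a nucleotide-binding protein of mitochondria, measured 97.5, 89.9 and 92.6 TPM in the sgEmpty libraries and 43.8, 39.6 and 44.2 TPM in the sgSETD1A libraries, again without overlap (-1.12 log2). COQ5, a methyltransferase of coenzyme Q synthesis, changed by -1.13 log2, PET112 (now GATB), which serves the making of mitochondrial glutaminyl-tRNA, by -1.25, ACAD10, of the acyl-CoA dehydrogenase family, by -1.06, and OMA1, a protease of the inner membrane, by -0.997.

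Some of the largest falls were in single genes of membrane, lipid-binding or haem-binding proteins. UNC50, a membrane protein of the Golgi and nuclear envelope, measured 55.2, 60.04 and 57.9 TPM in the sgEmpty libraries and 19.8, 23.9 and 23.96 TPM in the sgSETD1A libraries. The lowest sgEmpty library held more than the highest sgSETD1A library by a wide margin, a fall by 1.32 log2 (SE 0.0735, limma adjusted p = 4.58e-06). The most abundant transcript among the 30 largest falls was C2orf28 (now ATRAID), a membrane protein induced by retinoic acid, with 359, 354 and 349.9 TPM in the sgEmpty libraries and 173, 168 and 172 TPM in the sgSETD1A libraries. Its spread within a group was small beside its change of -1.05 log2 (limma adjusted p = 1.39e-07). CYB5D2, a haem-binding protein, went from 56.03, 58.9 and 54.5 TPM to 24.04, 22.7 and 23.5 TPM (-1.23 log2). PNPLA4, a lipid hydrolase of the patatin family, changed by -1.11 log2 and APOM, an apolipoprotein, by -0.98.

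Other large falls were in genes named for cilia, the testis or a protein family. C11orf1 (now CFAP68), a protein of cilia and flagella, had the largest called fall, from 13.7, 14.3 and 12.7 TPM to 3.74, 4.64 and 4.002 TPM (-1.51 log2, limma adjusted p = 4.58e-06). LRRC23, also a protein of motile cilia, measured 15.2, 14.5 and 14.6 TPM in the sgEmpty libraries and 5.64, 6.78 and 6.22 TPM in the sgSETD1A libraries (-1.13 log2). TTC23, linked to the cilium, was lower at 4.59, 4.88 and 4.90 TPM in sgEmpty and 1.28, 1.86 and 1.76 TPM in sgSETD1A, and its groups did not overlap. SPINK4, a secreted protease inhibitor, showed the widest spread of this set, with 11.7, 8.58 and 4.19 TPM in the sgEmpty libraries and 2.02, 3.30 and 1.38 TPM in the sgSETD1A libraries. Its groups stayed apart, but the lowest sgEmpty library and the highest sgSETD1A library were close (-1.45 log2, SE 0.303, limma adjusted p = 0.00487). The remaining genes of the 30 largest falls were C6orf52 (-1.27 log2), ADPRHL1 (-1.22), TEX19 (-1.20), C19orf54, now ACTMAP, a protease that matures actin (-1.13), the zinc finger genes ZNF572 (-1.12) and ZNF311 (-0.96), C15orf33, now FAM227B (-1.08), RRNAD1, now METTL25B (-1.06), MST1 (-1.05), C2orf74 (-1.02), NUDT6 (-1.01), HARBI1 (-1.005) and ATP6AP1L (-0.98). MST1 has near-identical copies elsewhere in the genome and NUDT6 overlaps FGF2 on the opposite strand, so both values are uncertain.

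Interferon-induced genes were the largest single family among the 30 largest rises. They were IFIT1, IFI27, IFI6, OAS1, OAS3, ISG15, IRF9, IFIT2 and PRIC285 (now HELZ2), with changes from 0.94 to 2.23 log2. ISG15, a ubiquitin-like modifier, measured 133, 117 and 119.6 TPM in the sgEmpty libraries and 233, 261 and 257 TPM in the sgSETD1A libraries. IRF9, a DNA-binding factor of the interferon response, stood at 29.9, 31.1 and 33.3 TPM in sgEmpty and 56.4, 63.3 and 68.6 TPM in sgSETD1A (0.97 log2, limma adjusted p = 1.72e-05). Within each group the libraries of both genes lay well away from those of the other group.

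Among the other large rises were single genes of signalling, metabolism and RNA decay. CXCR4, a chemokine receptor, measured 37.4, 29.8 and 30.4 TPM in the sgEmpty libraries and 98.1, 95.3 and 88.04 TPM in the sgSETD1A libraries. It rose by 1.51 log2 (limma adjusted p = 4.33e-06), with no overlap between groups. TXNIP, the inhibitor of thioredoxin, and its relative ARRDC4, both alpha-arrestins linked to glucose sensing, rose together. TXNIP went from 42.7, 41.1 and 36.3 TPM to 83.03, 79.6 and 75.96 TPM (0.97 log2, SE 0.0625, limma adjusted p = 8.57e-06). ARRDC4 measured 4.31, 3.24 and 4.04 TPM in sgEmpty and 8.88, 7.94 and 8.31 TPM in sgSETD1A (0.95 log2, limma adjusted p = 1.04e-04). In both genes every sgSETD1A library was above every sgEmpty library.

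Both RGS16 and RASD1, single genes of G protein and Ras-like signalling, were among the 30 largest rises. RGS16, which speeds the switching off of G proteins, measured 3.68, 3.72 and 3.07 TPM in the sgEmpty libraries and 6.71, 8.63 and 8.28 TPM in the sgSETD1A libraries (0.98 log2, limma adjusted p = 1.36e-04). RASD1, a Ras-like GTPase induced by glucocorticoid, went from 58.05, 53.4 and 49.96 TPM to 100.1, 111 and 108 TPM (0.97 log2). SAT1, the rate-limiting enzyme of polyamine breakdown, stood at 34.97, 38.95 and 32.5 TPM in sgEmpty and 63.1, 76.9 and 71.1 TPM in sgSETD1A (0.97 log2). For these genes the lowest sgSETD1A library was above the highest sgEmpty library. NUDT14, a hydrolase of nucleotide sugars, had nearly equal libraries within each group, 22.8, 24.3 and 23.7 TPM against 46.7, 47.3 and 49.3 TPM (0.99 log2, SE 0.0469, limma adjusted p = 2.69e-06).

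ZFP36L1, an RNA-binding protein that speeds the decay of messages with AU-rich elements, was the most abundant transcript of the 30 largest rises. It measured 174, 164 and 170.5 TPM in the sgEmpty libraries and 299, 333 and 333 TPM in the sgSETD1A libraries, a rise of 0.92 log2 (limma adjusted p = 3.42e-06). DAB2, an adaptor of endocytosis, went from 5.84, 5.53 and 5.90 TPM to 11.7, 12.1 and 11.7 TPM (0.93 log2), and MAP1B, which binds microtubules, from 1.75, 1.45 and 1.52 TPM to 4.63, 3.54 and 3.35 TPM (0.90 log2). SLC4A3, an anion exchanger, was less even, with 3.12, 3.11 and 3.97 TPM in sgEmpty and 5.81, 8.37 and 8.51 TPM in sgSETD1A (0.95 log2). Genes of secreted proteins (PIP with 1.24 log2, IGFBP3 with 1.21 and CRISP3 with 1.07), the receptor gene IL1R1 (1.07), C2orf54, now MAB21L4 (1.05), C20orf112, now NOL4L (0.95), and the zinc finger gene ZNF222 (0.96) completed this set, apart from 3 whose values are uncertain. UGT1A6 (1.25 log2) shares exons with the other UGT1A genes. KLHL23 (1.78 log2) was listed near 0 in 2 sgEmpty libraries and at 1.68 TPM in the other one, and it overlaps a read-through transcript with its neighbour. HIST1H1B (1.04 log2) encodes a linker histone whose message mostly lacks the poly(A) tail that an mRNA kit selects.

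**Figure D2:**
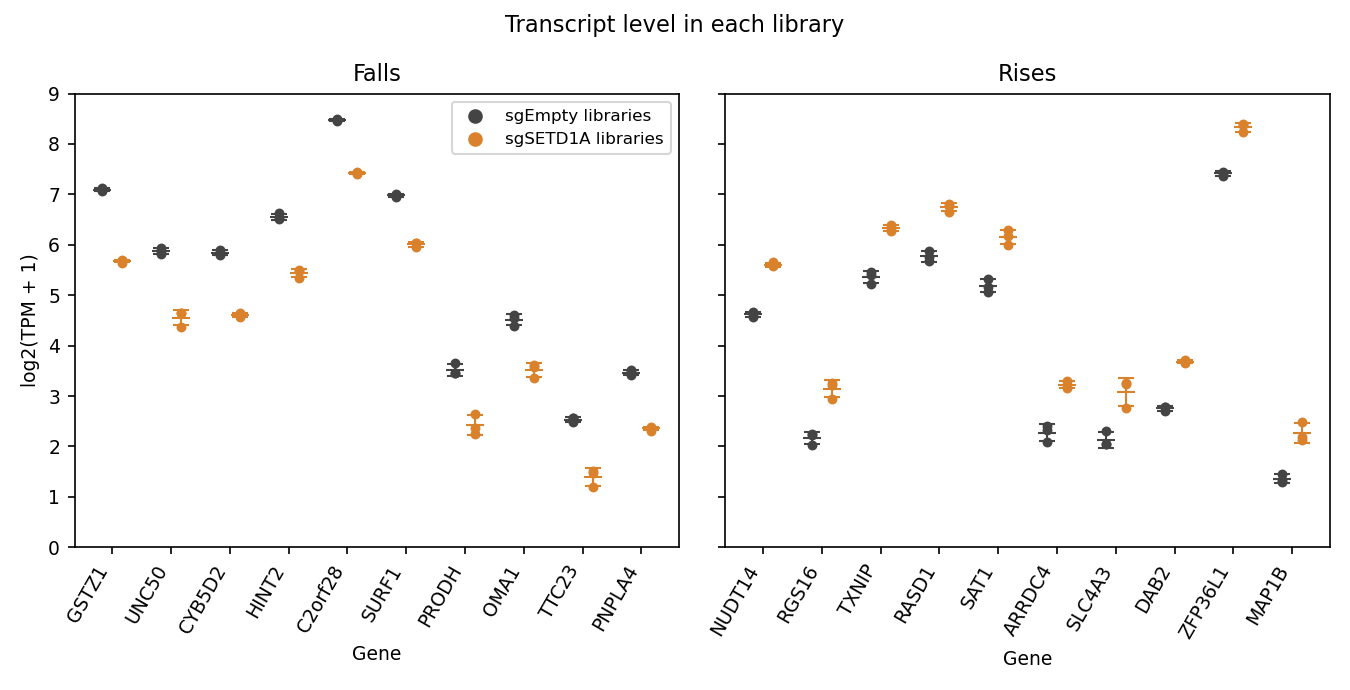
Points are single libraries and bars the mean ± SD (n = 3) of log2(TPM + 1), for 10 of the largest falls on the left and 10 of the largest rises on the right. In each of these genes all 3 sgSETD1A libraries lie on one side of all 3 sgEmpty libraries. C2orf28 is the most abundant fall (168 to 173 TPM in sgSETD1A) and ZFP36L1 the most abundant rise.

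Many of the genes with the largest falls share a start region with a neighbour on the opposite strand. The start regions of 5 of them, and of 3 interferon-induced genes for contrast, are printed here from 250 bases before to 50 bases after the first listed start (RefSeq, GRCh38.p14), 5′ to 3′ along the gene. Capitals mark the letters of 3 motifs on either strand: the GC box (GGGCGGG), bound by SP factors, the ETS motif (CCGGAAGT), and the core of the interferon-stimulated response element (GAAANNGAA), bound by IRF factors. Partners were matched with all listed starts of a gene, so the printed start need not be the one shared with the neighbour. Both the genes and the motifs shown were chosen after their values were seen. The expression table uses another build, so the windows were matched by gene name.
C11orf1 (CFAP68), chr11:111879291-111879590, plus strand: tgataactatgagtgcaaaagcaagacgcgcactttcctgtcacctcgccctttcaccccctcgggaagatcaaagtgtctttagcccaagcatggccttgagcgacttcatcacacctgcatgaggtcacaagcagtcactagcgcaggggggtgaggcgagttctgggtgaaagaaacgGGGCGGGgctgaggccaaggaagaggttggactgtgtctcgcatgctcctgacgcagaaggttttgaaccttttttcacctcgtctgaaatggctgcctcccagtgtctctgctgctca
GSTZ1, chr14:77320786-77321085, plus strand: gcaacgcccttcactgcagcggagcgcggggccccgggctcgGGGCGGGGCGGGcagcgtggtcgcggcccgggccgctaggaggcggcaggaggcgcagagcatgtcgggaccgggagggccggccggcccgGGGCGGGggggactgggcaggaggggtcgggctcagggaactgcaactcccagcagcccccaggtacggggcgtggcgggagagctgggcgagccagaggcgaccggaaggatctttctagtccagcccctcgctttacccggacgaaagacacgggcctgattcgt
UNC50, chr2:98608339-98608638, plus strand: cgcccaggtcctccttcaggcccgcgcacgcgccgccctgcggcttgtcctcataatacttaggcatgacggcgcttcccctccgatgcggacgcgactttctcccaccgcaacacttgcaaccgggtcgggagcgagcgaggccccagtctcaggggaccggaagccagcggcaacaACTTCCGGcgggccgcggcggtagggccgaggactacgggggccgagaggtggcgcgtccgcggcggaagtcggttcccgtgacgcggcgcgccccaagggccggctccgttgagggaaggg
C6orf52, chr6:10694567-10694866, minus strand: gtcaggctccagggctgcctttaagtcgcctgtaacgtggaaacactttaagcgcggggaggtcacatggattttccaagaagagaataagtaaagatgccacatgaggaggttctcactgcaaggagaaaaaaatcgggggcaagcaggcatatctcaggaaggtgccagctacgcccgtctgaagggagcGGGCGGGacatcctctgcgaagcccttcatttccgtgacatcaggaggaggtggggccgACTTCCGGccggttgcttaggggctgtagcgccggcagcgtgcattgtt
TTC23, chr15:99249532-99249831, minus strand: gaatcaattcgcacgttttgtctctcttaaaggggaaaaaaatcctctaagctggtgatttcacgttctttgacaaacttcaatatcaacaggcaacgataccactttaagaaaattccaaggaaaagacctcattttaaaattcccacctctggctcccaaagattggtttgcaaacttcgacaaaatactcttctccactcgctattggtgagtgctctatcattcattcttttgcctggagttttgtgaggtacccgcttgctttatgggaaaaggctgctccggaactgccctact
IFIT1, chr10:89392373-89392672, plus strand: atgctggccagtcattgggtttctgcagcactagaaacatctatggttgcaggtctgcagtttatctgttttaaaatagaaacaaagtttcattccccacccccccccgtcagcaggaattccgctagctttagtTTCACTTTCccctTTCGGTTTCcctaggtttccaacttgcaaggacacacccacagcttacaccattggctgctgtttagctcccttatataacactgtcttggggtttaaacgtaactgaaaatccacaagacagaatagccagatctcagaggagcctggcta
IFI27, chr14:94110486-94110785, plus strand: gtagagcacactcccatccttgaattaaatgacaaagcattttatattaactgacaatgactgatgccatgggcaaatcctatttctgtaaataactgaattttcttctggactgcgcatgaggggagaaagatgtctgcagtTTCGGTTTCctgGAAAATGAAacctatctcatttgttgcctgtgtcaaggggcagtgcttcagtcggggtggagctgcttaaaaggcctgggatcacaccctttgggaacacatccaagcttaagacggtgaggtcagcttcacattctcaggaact
IFI6, chr1:27672143-27672442, minus strand: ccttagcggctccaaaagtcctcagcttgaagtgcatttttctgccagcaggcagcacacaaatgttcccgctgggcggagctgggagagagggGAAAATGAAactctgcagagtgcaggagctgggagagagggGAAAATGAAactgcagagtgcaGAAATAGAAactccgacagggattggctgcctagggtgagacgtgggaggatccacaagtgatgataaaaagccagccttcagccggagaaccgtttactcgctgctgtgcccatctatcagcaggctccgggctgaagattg
The windows of GSTZ1 and UNC50 are 74.3% and 71.3% G or C, and that of TTC23, which holds none of the 3 motifs, 41.7%. IFIT1 and IFI27 hold the core of the response element at 2 places each and IFI6 at 3. GSTZ1 holds the GC box at 3 places, and UNC50 and C6orf52 hold the ETS motif.

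Head-to-head partners were counted for the 9728 tested genes (81.9%) with an entry in the promoter table. A gene had a partner if a start on the opposite strand lay up to 1000 bases upstream, with all listed starts of a gene used, a choice made after seeing the values for first starts. Of all tested genes with an entry, 29.6% had such a partner. The share was 39.2% of the called falls (523 of 1334, exact 95% interval 36.6 to 41.9%) and 26.5% of the called rises (718 of 2712, 24.8 to 28.2%). Among falls of at least 0.5 log2 it was 46.0% (131 of 285, 40.1 to 51.9%), and among falls of at least 1 log2 66.7% (14 of 21, 43.0 to 85.4%). None of the 14 rises of at least 1 log2 with an entry had a partner, where the exact 95% interval reaches up to 23.2%. For all rises of at least 0.5 log2 only 76.6% of genes had an entry, under the minimum of 80% set for such a check, so no share is read from them. These intervals treat genes as independent, which they are not, and cover counting error only.

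**Figure D3:**
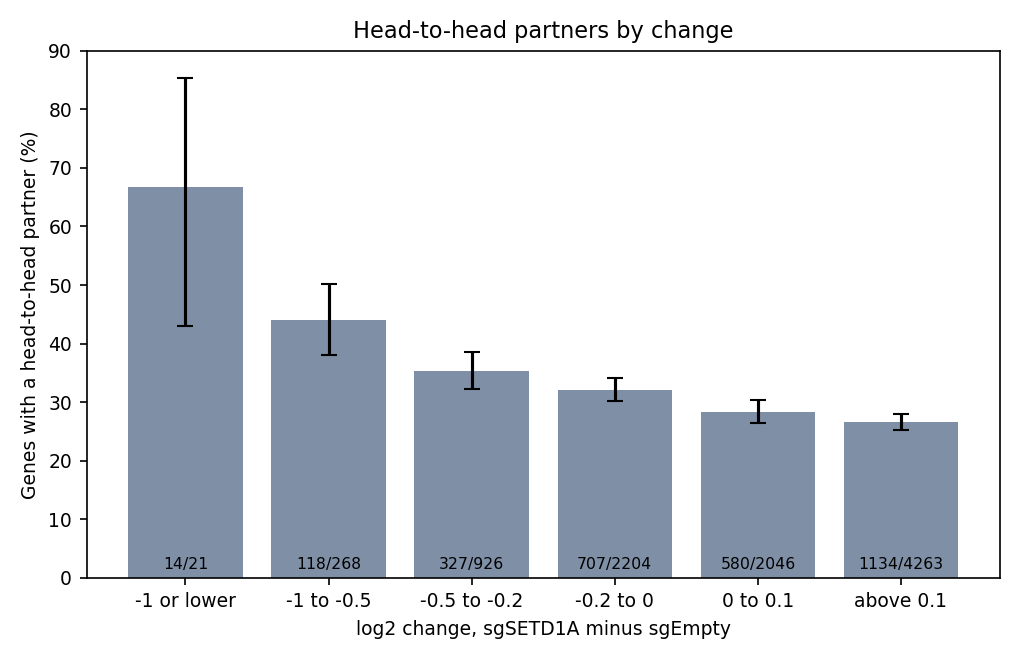
Bars give the percent of genes with a head-to-head partner within 1000 bases, in bins of the log2 change (sgSETD1A minus sgEmpty), over all genes with a promoter entry whether called or not. Error bars are exact 95% binomial intervals over genes, and the numbers at the foot are genes with a partner over genes with an entry. The share is 66.7% in the lowest bin and 26.6% in the highest, with 44.0, 35.3, 32.1 and 28.3% between them. The limits of the bins were set after the values were seen.

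Falls also had the higher share under stricter rules. With starts within 300 bases the shares were 32.2% of falls and 20.6% of rises, against 23.2% of all genes. With the first start of each gene they were 31.7%, 21.9% and 24.6%, and with protein-coding partners 27.2%, 12.6% and 17.0%. The shares were also taken within levels. In the lowest of 5 equal bins of genes by mean TPM 37.8% of falls, 16.7% of rises and 23.6% of all genes had a partner. The following bins had 45.04%, 23.3% and 30.99%, then 38.4%, 28.8% and 30.1%, then 40.8%, 25.9% and 30.5%. In the highest bin the shares were close, with 34.8% of falls, 33.5% of rises and 32.5% of all genes, and the rises did not lie below all genes. Turned round, genes with a partner fell in 18.2% and rose in 24.9% of cases, with a median change of 0.05 log2. Genes without one fell in 11.8% and rose in 29.1%, with a median of 0.08 log2.

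Most tested partners of these genes were not called lower themselves. Of the 30 largest falls, 14 of the 25 with an entry had a partner, and for 12 of these a partner was tested: 2 partners fell, 3 rose and 7 were not called. GSTZ1 lies 153 bases from POMT2, a protein O-mannosyltransferase, which measured 34.02, 31.4 and 30.9 TPM in the sgEmpty libraries and 35.1, 35.05 and 36.7 TPM in the sgSETD1A libraries. Where GSTZ1 fell by 1.42 log2, POMT2 rose by 0.15 (limma adjusted p = 0.0441). C2orf28 lies 92 bases from SLC5A6, a vitamin transporter, which stood at 156, 149 and 139 TPM in the sgEmpty libraries and 144, 144 and 149.9 TPM in the sgSETD1A libraries. The SLC5A6 groups overlapped (-0.02 log2, limma adjusted p = 0.710). RRNAD1 lies 30 bases from ISG20L2, an exonuclease of ribosomal RNA processing, which rose by 0.19 log2 (limma adjusted p = 0.0136) while RRNAD1 changed by -1.06.

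UNC50 and COA5, 77 bases apart, were the pair in this set that changed most in the same direction. COA5, an assembly factor of cytochrome c oxidase, measured 37.7, 43.9 and 43.3 TPM in the sgEmpty libraries and 26.3, 34.8 and 28.6 TPM in the sgSETD1A libraries, a fall by 0.47 log2 (limma adjusted p = 0.00439) beside 1.32 for UNC50. DTWD1, 230 bases from C15orf33, also fell, by 0.17 log2 (limma adjusted p = 0.0463). HARBI1 and ATG13, a gene of autophagy, changed in opposite directions, with 0.14 log2 for ATG13 (limma adjusted p = 0.0382). Median-ratio rescaling moves each gene by about -0.07 log2. The small rises of ATG13, POMT2 (0.15) and ISG20L2 (0.19) therefore rest in part on the scaling, and the counts of partners that rose are before rescaling. Partners that were not called were PAK1IP1 beside C6orf52 (0.09 log2, limma adjusted p = 0.335), LRRC28 beside TTC23 (-0.04), SNRPA beside C19orf54 (0.01), BRAP beside ACAD10 (0.09), RNF123 beside MST1 (0.05) and SPATA5, now AFG2A, beside NUDT6 (-0.02). Over all falls of at least 0.5 log2, 100 partners were tested: 30 fell, 22 rose and 48 were not called, with a median of -0.02 log2, beside the 18.2% falls and 24.9% rises over all genes with a partner. Where the transcripts of a pair overlap, reads could be split between them in the counting.

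Base content and motifs of the start regions were compared between falls and rises. The median G or C content was 63.3% for called falls, 67.0% for called rises and 65.7% for all tested genes with an entry. Among changes of at least 1 log2 the order turned, with 58.3% for falls and 53.3% for rises. The ETS motif stood in 4.44% of all promoters of the table and 9.15% of those of tested genes. It was found in 12.5% of called falls, 7.71% of called rises and 14.7% of falls of at least 0.5 log2, in the last set in 19.8% of genes with a partner and 10.4% without. The GC box went the other way over all called genes, with 59.5% of called rises and 48.4% of called falls. It stood in 32.9% of all promoters, 55.2% of tested genes and 36.8% of falls of at least 0.5 log2. The largest changes held it less often than tested genes in both directions. It stood in 9 of the 25 genes with an entry among the 30 largest falls and 10 of 28 among the 30 largest rises. The response element core was present in 8.29% of all promoters and 6.11% of tested genes. It stood in 7.12% of called falls, 6.42% of called rises and 4.91% of falls of at least 0.5 log2, and in 6 of the 28 genes with an entry among the 30 largest rises. For the other motifs searched, the shares in called falls and in all tested genes were these: the NRF1 motif (GCGCATGCG) in 4.65 and 3.95%, the YY1 motif (AAGATGGCG) in 4.65 and 4.15%, the ZNF143 motif (ACTACAATT) in 1.20 and 0.66%, the CRE (TGACGTCA) in 2.62 and 3.39%, the E box (CACGTG) in 9.45 and 10.6%, the CCAAT box (CCAAT) in 36.96 and 37.1%, and the TATA box (TATAAA) in 5.32 and 5.23%. In all promoters of the table these stood in 2.10, 1.85, 0.37, 1.98, 7.43, 35.7 and 11.9%. Both strands were searched, each motif on its own, and a match describes the letters and not a binding site.

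Gene groups were then read from 40 lists outside the interferon, ribosome and cholesterol genes. The lists were not tested as sets: each is given by its counts of called genes, beside 28% rises and 13.5% falls over all tested genes. Counts after median-ratio rescaling stand beside 15.4% rises and 19.2% falls. Members were counted without regard to their chromosome, though chromosomes differed in their share of called genes, as given at the end. Most lists described first and at most length met a criterion chosen after the values were seen. It asked for at least 15 tested members and a share of rises or falls at least 1.5 times that of all genes. Some related lists that did not meet it, such as the core spliceosome and the tricarboxylic acid cycle, are given beside them. TGF-beta and Hippo targets, S100 and annexin genes, and UGT, CYP and aldehyde dehydrogenase genes met it but are given later.

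Genes of the cytoskeleton mostly rose. Of 16 tested tubulin genes, which encode the subunits of microtubules, 13 rose and none fell, with a median of 0.38 log2. The count was 13 under both rescalings and 12 or 13 with any 1 library left out. TUBB, the main beta-tubulin of dividing cells, measured 739.98, 698 and 677 TPM in the sgEmpty libraries and 1082, 1053 and 1031 TPM in the sgSETD1A libraries. Its groups did not overlap (0.58 log2, SE 0.0364, limma adjusted p = 7.69e-06). TUBB3 went from 237, 207 and 207 TPM to 317, 333 and 329.9 TPM (0.59 log2), TUBB2A from 19.4, 16.99 and 17.7 TPM to 28.1, 28.9 and 29.05 TPM (0.64), and TUBA1B from 869.8, 838 and 813 TPM to 1045, 1069 and 1007 TPM (0.31). The 13 include TUBB4, with no current symbol matched, which was under 1 TPM in sgEmpty and passed the filter only through sgSETD1A, so its direction was set by the filter. Tubulin genes are alike in sequence, so reads may be shared among them, which makes the single values less certain than the direction of the group. Of 49 genes of actin, myosin and tropomyosin, 27 rose and 5 fell (median 0.14 log2). They include ACTB (0.30 log2), FLNA, a crosslinker of actin filaments (0.31), and MYO6 (0.30). MYO1F (-0.48), MYO7A (-0.36) and TAGLN (-0.35) fell, the first 2 having passed the filter only through sgEmpty. After median-ratio rescaling 17 rose and 8 fell, and the 5 falls were 2 without sgEmpty replicate 3 and 3 without sgSETD1A replicate 2.

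In protein turnover, 18 of 32 ubiquitin-conjugating enzymes rose and none fell (median 0.16 log2). UBE2L6, the conjugating enzyme for ISG15, measured 7.67, 10.1 and 9.68 TPM in the sgEmpty libraries and 12.4, 13.9 and 13.5 TPM in the sgSETD1A libraries (0.50 log2). UBE2C, an enzyme of the anaphase-promoting complex, rose by 0.41 and UBE2E2 by 0.39 log2. Of 44 proteasome genes 23 rose and 5 fell (median 0.12). PSMB10, a subunit of the immunoproteasome, went from 27.6, 28.1 and 26.5 TPM to 32.7, 39.7 and 39.9 TPM, PSMD11 rose by 0.35 and PSMD12 by 0.34 log2. PSMD10 fell, from 81.3, 86.7 and 83.8 TPM to 56.2, 57.4 and 56.5 TPM (-0.56 log2), as did PSMD4 (-0.31). Of 49 genes of lysosomal enzymes and the proton pump, 27 rose and 1, ATP6V1E2 (-0.68), fell (median 0.15). Lysosomal hydrolases led the rises: CTSA measured 98.6, 93.6 and 88.1 TPM in the sgEmpty libraries and 137, 132 and 136 TPM in the sgSETD1A libraries (0.53 log2, limma adjusted p = 3.95e-05), CTSH rose by 0.46 and ARSA by 0.45. Of 70 chaperones 30 rose and 4 fell. HSP90AA1 stood at 1435, 1414 and 1406 TPM in sgEmpty and 1914, 1789 and 1828 TPM in sgSETD1A, HSPA2 rose by 0.74 and DNAJB5 by 0.56, while DNAJA3 fell by 0.48 log2. These groups rest in part on the scaling: after median-ratio rescaling the rises were 8 of the conjugating enzymes, 12 of the proteasome, 12 of the lysosome and 16 of the chaperones, against 15.4% of all genes.

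RNA-binding proteins of splicing formed a further group. Of 32 SR and hnRNP genes, which help to choose splice sites, 18 rose and 1, HNRNPH2 (-0.22 log2), fell, with a median of 0.15 log2. HNRNPA3 had 121, 121 and 120.00 TPM in sgEmpty and 158, 157 and 159 TPM in sgSETD1A, with nearly equal libraries in each group (0.38 log2, limma adjusted p = 3.25e-05). SRSF7 rose by 0.29, TRA2A by 0.31 and HNRNPH1 by 0.31 log2. The groups of HNRNPH1 overlapped, with sgSETD1A replicate 1 at 348 TPM and sgEmpty replicate 3 at 354 TPM. The 57 core spliceosome genes stood near all genes, with 16 rises and 6 falls (3 falls without sgSETD1A replicate 3), among them PRPF40B (0.73), PRPF18 (0.36) and PRPF4 (-0.29). After median-ratio rescaling 10 of the SR and hnRNP genes rose and 4 fell, and the balance of the core spliceosome turned, to 8 rises and 10 falls.

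Falls outnumbered rises among genes that build N-glycans and GPI anchors in the endoplasmic reticulum. Of 58 tested, 22 fell and 12 rose (median -0.10 log2), and 28 fell after median-ratio rescaling. PIGV, a mannosyltransferase of the GPI anchor, measured 27.7, 26.6 and 26.6 TPM in the sgEmpty libraries and 12.6, 13.3 and 15.01 TPM in the sgSETD1A libraries. All sgSETD1A libraries lay at about the same lower level, a fall by 0.94 log2 (SE 0.0661, limma adjusted p = 1.47e-05). PIGK, of the GPI transamidase, fell by 0.67, PIGP by 0.63 and ALG8, a glucosyltransferase of the N-glycan precursor, by 0.51 log2. DAD1, a subunit of the oligosaccharyltransferase, went from 431, 455 and 424 TPM to 353, 338 and 328 TPM. Subunits of the same complexes moved both ways: PIGT, also of the transamidase, rose by 0.53 and RPN2, of the oligosaccharyltransferase, by 0.28 log2. These single values were not set against those of their own chromosomes, which differed in their share of called genes.

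Metabolic lists held many falls. Of 38 genes of amino acid breakdown 13 fell and 11 rose (median -0.04 log2), and 17 and 7 after median-ratio rescaling. Beside GSTZ1 and PRODH, MCEE, of propionate breakdown, measured 26.2, 24.3 and 24.8 TPM in the sgEmpty libraries and 13.2, 16.3 and 13.5 TPM in the sgSETD1A libraries (-0.77 log2). The rises included the urea cycle enzyme ASL (0.60 log2), the lysine-degrading AASS (0.69) and ARG2 (0.45). In the folate and serine pathway 7 of 20 fell and 1 rose. All 3 enzymes of serine synthesis were among the falls: PHGDH, the first, measured 102, 97.1 and 96.97 TPM in the sgEmpty libraries and 75.8, 78.9 and 77.03 TPM in the sgSETD1A libraries (-0.35 log2), PSAT1 fell by 0.19 and PSPH by 0.70. MAT2A, which makes S-adenosylmethionine, the methyl donor of histone methyltransferases, rose by 0.17 log2 (limma adjusted p = 0.0367), while its regulatory partner MAT2B fell by 0.22. MAT2A was not called after median-ratio rescaling, when no gene of this list rose.

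Organelle lists held falls and rises. Peroxisome assembly had 6 falls and 2 rises among 16, and PEX11G was among the falls (-0.80 log2). Mitochondrial protein import had 10 falls and 8 rises among 33 (5 rises without sgEmpty replicate 2 or sgSETD1A replicate 2), with TIMM17B, a channel subunit of the inner membrane, at -0.45 and TOMM7, of the outer membrane, at -0.30 log2, and TOMM34 at 0.47. Fatty acid oxidation had 6 falls and 5 rises among 22. CPT2, which frees fatty acids from carnitine in the matrix, fell by 0.44 and ECI1 by 0.36, and ACAA2 rose by 0.32 log2. Its falls numbered 3 when sgEmpty replicate 1, sgEmpty replicate 2 or sgSETD1A replicate 2 was left out. Its rises numbered 2 without sgEmpty replicate 2 and 3 without sgSETD1A replicate 3. The tricarboxylic acid cycle had 8 rises and 6 falls among 31, with SDHC, a membrane subunit of succinate dehydrogenase, going from 54.9, 60.5 and 56.4 TPM to 38.2, 36.5 and 36.8 TPM (-0.61 log2). Those 8 rises were 4 without sgEmpty replicate 2 and 5 without sgSETD1A replicate 3. After median-ratio rescaling its balance turned, to 3 rises and 8 falls, while mitochondrial import had 4 rises and 11 falls and fatty acid oxidation 2 and 9.

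Of 62 cilium genes 19 fell and 9 rose (median -0.004 log2), and 23 fell and 3 rose after median-ratio rescaling. TCTN1, of the ciliary transition zone, measured 16.5, 15.3 and 14.3 TPM in the sgEmpty libraries and 9.67, 9.52 and 9.15 TPM in the sgSETD1A libraries (-0.64 log2). MKS1, of the same zone, fell by 0.54, IFT27, of the transport trains inside the cilium, by 0.56 and CEP290 by 0.39 log2. The kinesin-2 subunits KIFAP3 (0.44) and KIF3B (0.33), which also carry other cargo, rose. The 9 rises were 5 without sgEmpty replicate 1 or sgEmpty replicate 2.

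Among complexes of transcription, Integrator, which cleaves small nuclear and paused transcripts, had 6 falls and 4 rises in 17. INTS2 measured 31.5, 31.6 and 32.2 TPM in the sgEmpty libraries and 18.2, 16.4 and 16.2 TPM in the sgSETD1A libraries, the largest change of the list (-0.87 log2, SE 0.0563, limma adjusted p = 8.75e-06). C15orf44 (now INTS14, -0.36) and INTS4 (-0.28) also fell, and INTS1 (0.31) and CPSF3L (now INTS11, the nuclease, 0.34) rose. The 6 falls were 3 without sgEmpty replicate 3. In the 35 general transcription factors 7 fell and 8 rose. TAF10 went from 79.6, 84.00 and 78.4 TPM to 51.7, 56.2 and 55.4 TPM, TAF6 changed by -0.43 and GTF2H5, of the TFIIH factor, by -0.63 log2. Their 8 rises became 5 when sgEmpty replicate 1 or 3 was left out, 4 without sgEmpty replicate 2, and 3 when sgSETD1A replicate 3 was left out. Median-ratio rescaling left none, with 11 falls, and gave 3 rises and 9 falls for Integrator. RNA polymerase II had 6 rises and no fall among 12, with POLR2F at 0.28 and POLR2K at 0.25 log2. Leaving out sgEmpty replicate 2, sgSETD1A replicate 2 or sgSETD1A replicate 3 gave 3 rises, and median-ratio rescaling gave 1. Mediator had 6 rises and 2 falls among 33, with MED18 at -0.50 log2. No rise and 4 falls were left after median-ratio rescaling. Without sgEmpty replicate 1 there were 3 rises, and 1 when either sgEmpty replicate 2 or sgSETD1A replicate 3 was left out.

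Factors of RNA ends, export and decay were read from 3 lists whose balance rests on the scaling. Of 20 cleavage and polyadenylation genes 5 rose and 3 fell. CPSF2 measured 52.8, 52.3 and 50.3 TPM in the sgEmpty libraries and 33.00, 30.8 and 31.5 TPM in the sgSETD1A libraries (-0.69 log2), CPSF3, the nuclease that cuts the message, fell by 0.56 and CSTF1 by 0.41. The 5 rises became 2 when sgEmpty replicate 2 was left out, and 3 when sgEmpty replicate 1, sgSETD1A replicate 2 or sgSETD1A replicate 3 was. Of 27 nucleoporins 8 rose and 3 fell, AAAS (-0.68), NUP37 (-0.63) and NUP107 (-0.41). Those 8 rises were 4 without sgEmpty replicate 3 and 5 without any of 4 other libraries, all but sgSETD1A replicate 1. The RNA exosome and its adaptors had 5 rises and 2 falls among 19, led by MPHOSPH6 (0.52), with 3 rises when sgEmpty replicate 1, sgEmpty replicate 2 or sgSETD1A replicate 3 was left out. After median-ratio rescaling all 3 lists turned: cleavage and polyadenylation had 2 rises and 4 falls, nucleoporins 3 and 6, and the exosome 2 and 5.

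Chromatin lists mostly had more rises than falls, as did all tested genes (28% and 13.5%). Rises made up 39.3% of Polycomb, 30% of HOX, 28.9% of C2H2 zinc finger, 28% of SWI/SNF and 23.2% of histone genes. Polycomb genes, whose complexes place repressive marks, had 11 rises and no fall among 28 (median 0.15 log2), and 8 rises and 1 fall after median-ratio rescaling. EZH2, the methyltransferase of histone H3 lysine 27, measured 32.6, 32.04 and 32.8 TPM in the sgEmpty libraries and 38.5, 38.9 and 39.7 TPM in the sgSETD1A libraries (0.26 log2, limma adjusted p = 0.00138). PCGF3 rose by 0.37 and RNF2, the ubiquitin ligase, by 0.33. SWI/SNF remodellers had 7 rises and 2 falls among 25 (4 rises without sgSETD1A replicate 3), led by SMARCD3 (0.59). Of 10 tested HOX genes 3 rose, all of the HOXC cluster: HOXC8 (0.73), HOXC10 (0.72) and HOXC9, at 5.88, 5.08 and 6.63 TPM in sgEmpty and 8.67, 9.53 and 7.32 TPM in sgSETD1A. Replication-dependent histone genes had 13 rises and 3 falls among 56, and 20 rises without sgSETD1A replicate 1. Zinc finger genes of the C2H2 type had 114 rises and 39 falls among 395, close to all genes. After median-ratio rescaling the zinc finger genes had 71 and 53, the remodellers 5 and 4, and the histone genes 11 and 5.

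Signalling lists were small. Of 14 NF-kB target genes 7 rose and none fell (median 0.15 log2). NFKB2 measured 20.7, 19.03 and 20.4 TPM in the sgEmpty libraries and 28.6, 31.9 and 30.5 TPM in the sgSETD1A libraries (0.57 log2, limma adjusted p = 1.09e-04), and RELB rose by 0.60. The 7 include TNFAIP3, an inhibitor of the pathway, which was under 1 TPM in sgEmpty and passed the filter only through sgSETD1A. After median-ratio rescaling 4 of the list rose and none fell. Of 19 TGF-beta and Hippo targets 9 rose and none fell: BAMBI, a decoy receptor, went from 244, 236 and 229.8 TPM to 355, 343 and 344 TPM (0.55 log2), and TGFBI rose by 0.77. After median-ratio rescaling 7 of these targets rose and 1 fell, and after quantile normalization 8 rose and 2 fell. Leaving out sgEmpty replicate 1 or sgSETD1A replicate 2 also gave 1 fall. NRF2 targets had 9 rises and 2 falls among 24, with AKR1C1 (0.84) and AKR1C2 (0.67), which are near-identical and so uncertain, AKR1C2 also having passed the filter only through sgSETD1A, and HMOX1 (0.55). The 36 immediate early genes were split, 12 up and 7 down. EGR1 measured 61.6, 61.1 and 66.8 TPM in the sgEmpty libraries and 41.4, 45.2 and 45.9 TPM in the sgSETD1A libraries (-0.51 log2), EGR3 fell by 0.55, and DUSP4 (0.40) and KLF2 (0.52) rose. Those 7 falls became 3 when sgEmpty replicate 1, sgEmpty replicate 3 or sgSETD1A replicate 2 was left out, and 4 when sgSETD1A replicate 3 was. S100 and annexin genes had 6 rises and 4 falls among 18, with S100P at 94.6, 102 and 97.2 TPM in sgEmpty and 62.7, 61.4 and 56.5 TPM in sgSETD1A and S100A9 rising by 0.59 log2. After median-ratio rescaling the balance turned in both, to 9 rises and 10 falls of immediate early genes and 4 and 5 of S100 and annexin genes.

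In the lists not yet named, translation factors had 24 rises and 7 falls among 65, and 17 and 11 after median-ratio rescaling. EIF2D, an initiation factor outside the main pathway, measured 49.1, 50.2 and 46.9 TPM in the sgEmpty libraries and 26.4, 25.8 and 27.9 TPM in the sgSETD1A libraries (-0.84 log2), and EIF2AK2, the kinase PKR, rose by 0.48. Solute carriers had 45 rises and 34 falls among 183, but the balance turned to 26 and 48 once rescaled by median ratios, and quantile normalization gave 30 and 42. Of the 34 falls 2 passed the filter only through sgEmpty. SLC39A6, a zinc importer induced by oestrogen, went from 648, 653 and 643 TPM to 1002, 952 and 931 TPM (0.57 log2), SLC39A10, its relative, rose by 0.71, and SLC7A5, an importer of large amino acids, fell from 189, 168 and 167 TPM to 114, 116 and 108 TPM (-0.63 log2). RAB GTPases had 15 rises and 1 fall among 48 and coat proteins and SNAREs 15 and 9 among 52. After median-ratio rescaling these were 6 and 5 for RAB GTPases and 7 and 15 for coat proteins and SNAREs, where the balance turned. Autophagy genes had 11 rises and 3 falls among 31, and after median-ratio rescaling 2 and 8. Their rises became 6 when sgEmpty replicate 2 or sgSETD1A replicate 3 was left out, and 7 when sgEmpty replicate 3 or sgSETD1A replicate 2 was. Nucleotide synthesis had 10 rises and 5 falls among 32, with RRM2, of ribonucleotide reductase, at 0.47 log2, and 7 and 9 after median-ratio rescaling. UGT, CYP and aldehyde dehydrogenase genes had 5 and 5 among 24 (4 and 8 after median-ratio rescaling), the falls numbering 3 when sgEmpty replicate 2, sgEmpty replicate 3 or sgSETD1A replicate 3 was left out.

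**Figure D4:**
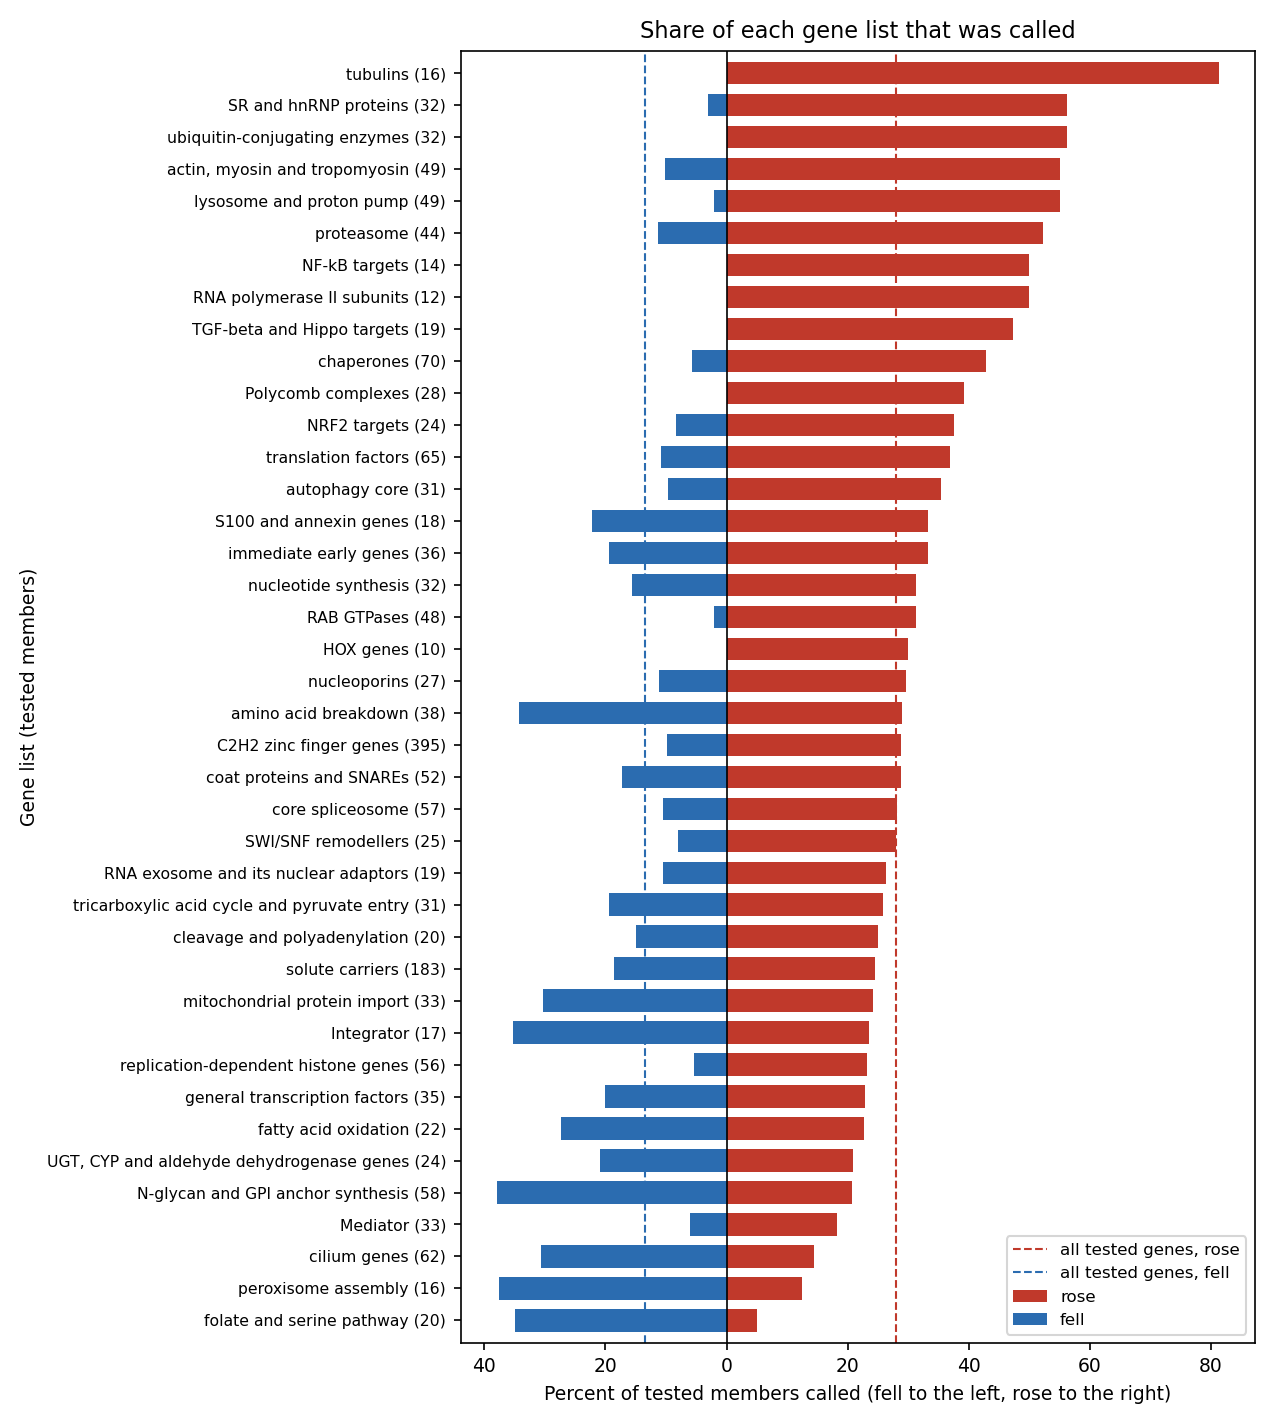
Bars give, for each of the 40 gene lists, the percent of its tested members called higher (red, to the right) and lower (blue, to the left), with the number tested in parentheses. Dashed lines mark the same shares over all tested genes (28% and 13.5%). Tubulins have the highest share of rises (13 of 16), and N-glycan and GPI anchor synthesis the highest share of falls (22 of 58). The bars are before rescaling, which turned the balance of several lists.

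Genes near SETD1A on chromosome 16 were compared as a check on the region cut by Cas9. The 25 tested genes on the side towards the end of the short arm had a median change of -0.06 log2, with 1 rise and 4 falls, and the difference between groups in their library medians was -0.056 log2 (exact permutation test, two-sided, n = 3 per group, p = 0.3, where 0.1 is the smallest possible). The 25 genes on the other side had a median of 0.05 log2, with 4 rises and 6 falls (p = 0.5 by the same exact test). Among the nearest genes ORAI3, a calcium channel subunit, fell by 0.26 log2 (limma adjusted p = 0.00468), and ZNF646 fell by 0.30. FBXL19, RNF40, BCL7C and STX4 were not called. The median of -0.06 log2 was -0.13 under median-ratio rescaling and when sgSETD1A replicate 2 was left out, -0.10 without sgEmpty replicate 2 and -0.03 without sgSETD1A replicate 1.

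A longer stretch was examined after these values had been seen, so it is given without a test. On the side towards the end of the short arm, 296 tested genes had a median change of -0.10 log2, and 111 of them fell (37.5%) while 12 rose (4.05%). DNAJA3 (-0.48 log2) and ECI1 (-0.36), given above as falls of their lists, are among these 296 genes. On the side that runs through the centromere to the long arm, 282 genes had a median of 0.05 log2, with 63 rises (22.3%) and 44 falls (15.6%). The 11199 genes of other chromosomes had a median of 0.08 log2, with 28.9% rises and 12.8% falls. In windows of 50 genes the medians ran from -0.16 to -0.07 log2 along the short-arm end side and from 0.01 to 0.09 on the other side, so the step stood at SETD1A at this resolution. The median deviations of the 296 genes from their own means were 0.081, 0.038 and 0.067 log2 in sgEmpty and -0.124, -0.021 and -0.048 in sgSETD1A. The groups did not overlap, and sgSETD1A replicate 1 lay lowest. Median-ratio rescaling moved the short-arm end side to -0.17 log2 and the other side to -0.02, which turns its direction. The number of copies of this region was not analysed here, and its part in these values was not tested.

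**Figure D5:**
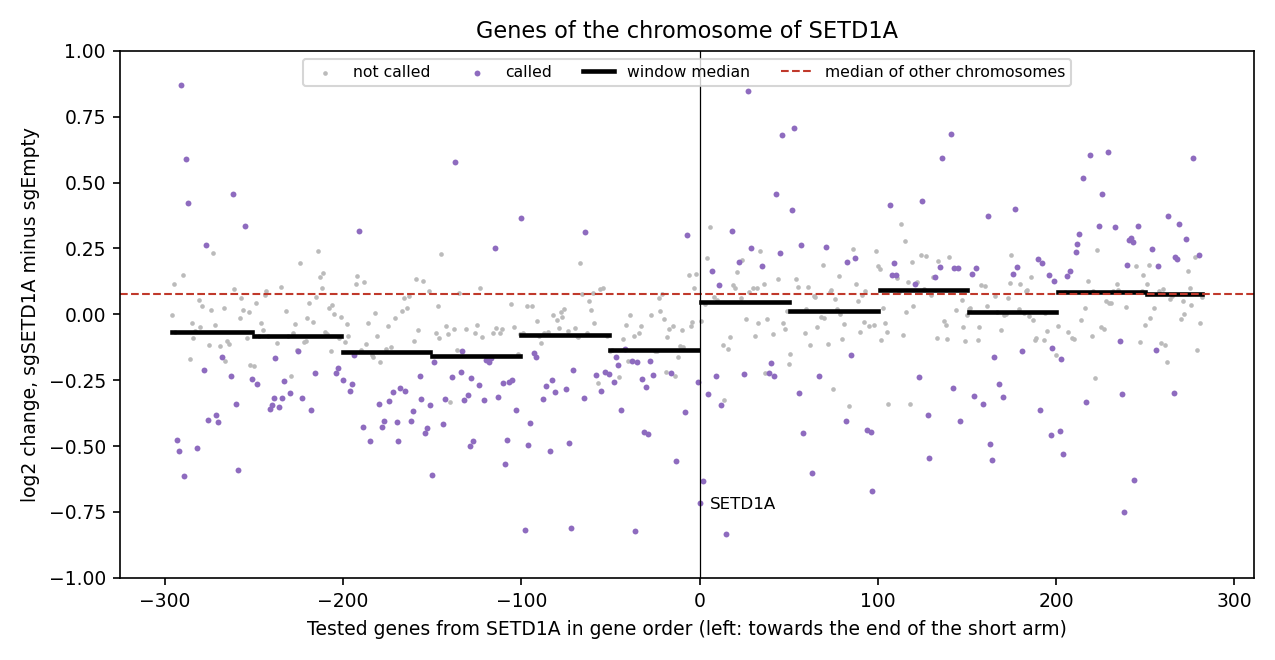
Each point is a tested gene of chromosome 16 in gene order from SETD1A, with negative order towards the end of the short arm, and its log2 change (sgSETD1A minus sgEmpty). Purple points were called, black bars are medians of windows of up to 50 genes, and the dashed line is the median of other chromosomes. All 6 windows to the left of SETD1A lie below 0 and all 6 to its right above 0 as plotted, while the right side as a whole lies at -0.02 log2 once rescaled by median ratios.

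The size of change depended on level. In the lowest of 5 equal bins of genes, up to 6.09 TPM, 195 rises and 102 falls reached 0.5 log2. In the highest bin, from 65.3 TPM, the counts were 30 and 34. Called genes of any size went the other way, from 560 rises and 239 falls in the lowest bin to 839 and 408 in the highest. The median gene span (RefSeq, GRCh38.p14) was 23.4 kb for called falls, 31.6 kb for called rises and 30.2 kb for all tested genes.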

How the data were processed

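RNA was measured in 6 libraries, 3 sgEmpty and 3 sgSETD1A, prepared with a stranded mRNA kit per the labels' protocols. The authors deposited TPM per gene symbol. Per the submitters' processing notes, STAR 2.6.0c, RSEM 1.3.1, bcl2fastq 2.20.0 and the hg19 build were used. TPM keeps no depth, so no count test was run. No source used here states the strand setting. The row without a gene name, which holds the column total, was dropped. The titles gave each library's group and number.

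Genes with a mean of at least 1 TPM were compared with limma 3.58.1 (R 4.3.3), its trend option on, from log2(TPM + 1), with Benjamini-Hochberg adjustment over all 11885 genes and a threshold of 0.05. The code was tested on simulated data. Named genes were the 30 largest called rises and falls whose groups did not overlap, SETD1A, up to 3 called genes per direction of each list, tested head-to-head partners of the 30 falls, and the nearest genes to SETD1A. TUBB, TUBA1B, SRSF7, ALG8, DAD1, RPN2, PSAT1, MKS1, IFT27, CEP290 and EZH2 were named after their values were seen, and a few genes that the rule names are not reported here. The members, the 40 gene lists and the marker lists were chosen with earlier results of these data known. Symbols were matched to RefSeq names: 16921 were current, 1897 were older symbols and 217 did not match. Promoters and gene order came from RefSeq on GRCh38.p14, and intervals of shares are exact binomial (Clopper-Pearson, scipy 1.17.1). Alternatives changed the pseudocount, the filter, the scaling, the trend, the replicate block, the libraries included and the partner rule.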

Additional observations from a re-analysis of the deposited data

How the results depend on the processing

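The replicate numbers of the 2 groups did not pair the libraries. Correlations of deviations between same-numbered libraries were 0.0845, -0.104 and 0.169, and only the libraries numbered 3 correlated best with each other. With the replicate number as a block, 3103 genes were higher and 1539 lower.

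Median-ratio rescaling gave 1835 rises and quantile normalization 2142, against 3327. Genes changed by at least 1 log2 numbered 82 higher and 50 lower at a pseudocount of 0.1 and 6 and 6 at 5. Leaving out 1 library at a time gave 2361 to 3459 rises, 1288 to 1616 falls, 14 to 25 rises and 24 to 29 falls of at least 1 log2, and -0.77 to -0.65 log2 for SETD1A.

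The share of called rises with a head-to-head partner was 24.6% after median-ratio rescaling, and with starts within 300 bases the shares of rises, falls and falls of at least 0.5 log2 were 20.6, 32.2 and 37.2%. With protein-coding partners they were 12.6, 27.2 and 36.1%, and with first starts 21.9, 31.7 and 36.5%, both rules chosen after seeing the data. Without 1 library they were 25.8 to 27.3%, 38.6 to 40.7% and 45.3 to 47.3%. Beside SETD1A, the 25 genes on the short-arm end side had a median of -0.13 log2 under median-ratio rescaling and -0.13 under quantile normalization, and -0.130 to -0.032 without 1 library, the latter without sgSETD1A replicate 1. All genes of that side had -0.17 log2 under median-ratio rescaling and -0.14 to -0.08 without 1 library. Those of the other side had -0.020 log2 under median-ratio rescaling, a change of direction, 0.0015 under quantile normalization and 0.04 to 0.07 without 1 library. Of the 270 named genes that were called, 22 lost their call under median-ratio rescaling and at most 26 without 1 library, and none changed direction. Depth is unknown, so what depth limits cannot be given. The cause of these shifts was not tested.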

Other observations

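Chromosomes differed in their share of called genes, a reading made after the data were seen and given without a test. On chromosome 20, 154 of 311 tested genes rose (49.5%) and 15 fell (4.82%). The median change there was 0.18 log2. Named rises of genes on this chromosome, such as C20orf112 by its symbol, were not set apart from it. Chromosome 15 had 143 rises (38.4%) and 37 falls (9.95%) among 372 genes and a median of 0.13 log2. On chromosome 9 the median was 0.03 log2, with 106 rises and 90 falls among 487 genes. The median deviations of chromosome 20 genes from their own means were -0.082, -0.101 and -0.079 log2 in sgEmpty and 0.072, 0.095 and 0.097 in sgSETD1A, so no library stood apart. Copy number was not analysed here, and its part in these values was not tested.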
